A study of Sus scrofa with 5 samples.

Results

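Lymphatic endothelial nuclei were a rare population in single-nucleus RNA sequencing of the pig abdominal aorta. A nucleus was counted as lymphatic endothelial when it held at least 1 unique molecular identifier (UMI, a tag that marks 1 captured RNA molecule) of at least 3 of 7 genes, namely PROX1, FLT4, MMRN1, RELN, LYVE1, CCL21 and PKHD1L1. By this rule 60 of the 45505 nuclei with at least 300 detected genes were lymphatic endothelial, or 0.132%. The tissue came from 5 castrated male Ossabaw pigs, a miniature breed used as a large-animal model of diet-induced obesity, with 1 library per pig. The obese group held 3 pigs fed a high-fat, high-fructose diet (HF/HFru), and the control group held 2 pigs fed chow. All pigs started their diet at 12 months of age. The diet lasted 6 months in the sample labels and 9 months in the series text. Nuclei were isolated from frozen vessel pieces and sorted on a DNA stain, so every cell type of the piece could enter the libraries and no gate selected endothelium.

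Lymphatic vessels return interstitial fluid, lipids and immune cells from tissue to the blood, and in large arteries they run mainly in the adventitia, the outer layer of the wall. Their endothelium is specified and maintained by the transcription factor PROX1. Its growth depends on the ligand VEGFC, which must be cleaved by the protease ADAMTS3 before it can fully activate its receptor VEGFR3, the product of FLT4, with NRP2 as a co-receptor. LYVE1 is a hyaluronan receptor of initial lymphatics, CCL21 is the chemokine that draws dendritic cells and T cells into them, RELN is the secreted glycoprotein reelin, and MMRN1 encodes multimerin 1, an extracellular protein that marks lymphatic endothelium.

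The lymphatic nuclei were spread unevenly over the pigs. Obese replicates 1, 2 and 3 gave 11, 32 and 1 of them, and control replicates 1 and 2 gave 11 and 5. Obese replicate 2 thus supplied 53.3% of all lymphatic nuclei and obese replicate 3 a single nucleus. The libraries held 21516249 to 47724416 UMIs in 5697 to 12282 nuclei. All lymphatic nuclei together held 437515 UMIs, with a median of 6033 per nucleus and a range of 693 to 36631, and the sums per pig were 92998, 233487 and 3801 UMIs in obese pigs and 87661 and 19568 UMIs in control pigs. The single nucleus of obese replicate 3 stands apart. It was among 8 lymphatic nuclei marked as doublets by Scrublet and among 26 with 4 or more smooth muscle markers, and its summed smooth muscle markers reached 6840 CPM (UMIs scaled to a common library total), against 1054 to 2647 CPM in the lymphatic sums of the other 4 pigs. In that nucleus 1 UMI equals 263 CPM, so values without it are given where they differ by more than 1.5-fold or lose the call. Across libraries 198 barcodes occurred more than once, of which 1 belonged to a lymphatic nucleus.

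The nearest comparison population was blood endothelial nuclei, defined as nuclei outside the lymphatic rule with a UMI of at least 3 of PECAM1, CDH5, VWF, FLT1, EMCN, PLVAP and EGFL7. There were 723 of them, 85, 125 and 57 in obese replicates 1, 2 and 3 and 315 and 141 in control replicates 1 and 2. Their median was 6085 UMIs over all pigs, but within pigs the depths differed. The median was 8363, 5776.5 and 3801 UMIs in lymphatic nuclei of obese replicates 1, 2 and 3 and 6026 and 2985 UMIs in those of control replicates 1 and 2, against 3216, 3454, 3609, 8411 and 7210 UMIs in blood endothelial nuclei of the same pigs. A second comparison took all other nuclei, 45445 with the blood endothelial nuclei included, whose median was 2221 UMIs. Of the 60 lymphatic nuclei, 32 also held at least 3 genes of the blood endothelial rule, which includes genes that all endothelium uses.

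The 7 genes of the rule were not equally informative. The values in this paragraph chose the nuclei and are a description with no test. RELN was detected in 53 of the 60 nuclei, PROX1 in 47, PKHD1L1 in 45, MMRN1 in 41, FLT4 in 23, LYVE1 in 15 and CCL21 in 6. PROX1 stood at 1032, 514 and 789 CPM in the lymphatic nuclei of obese replicates 1, 2 and 3 and at 616 and 3833 CPM in those of control replicates 1 and 2, against 27.6, 72.5, 263, 5.88 and 6.22 CPM in blood endothelial nuclei of the same pigs in that order. Every lymphatic value of PROX1 lay above every blood endothelial value. Obese replicate 3 had the highest PROX1 level in its blood endothelial nuclei, where 9 of 57 nuclei held a PROX1 UMI. RELN had 1677, 1439 and 3420 CPM in obese lymphatic nuclei and 548 and 562 CPM in control lymphatic nuclei, against at most 74.1 CPM in the blood endothelial nuclei of any pig. MMRN1 had 634, 475 and 263 CPM in obese lymphatic nuclei and 878 and 256 CPM in control lymphatic nuclei, and it was undetected in the blood endothelial nuclei of obese replicate 3 and control replicate 2. PKHD1L1, which encodes a large membrane protein, was at 462, 523 and 0 CPM in obese lymphatic nuclei and at 491 and 307 CPM in control lymphatic nuclei. The receptor gene FLT4 was sparse, with 37 UMIs in all, none of them in obese replicates 1 and 3. LYVE1 had 25 UMIs and CCL21 had 8, so neither gene would define the population by itself at this depth.

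**Figure D1:**
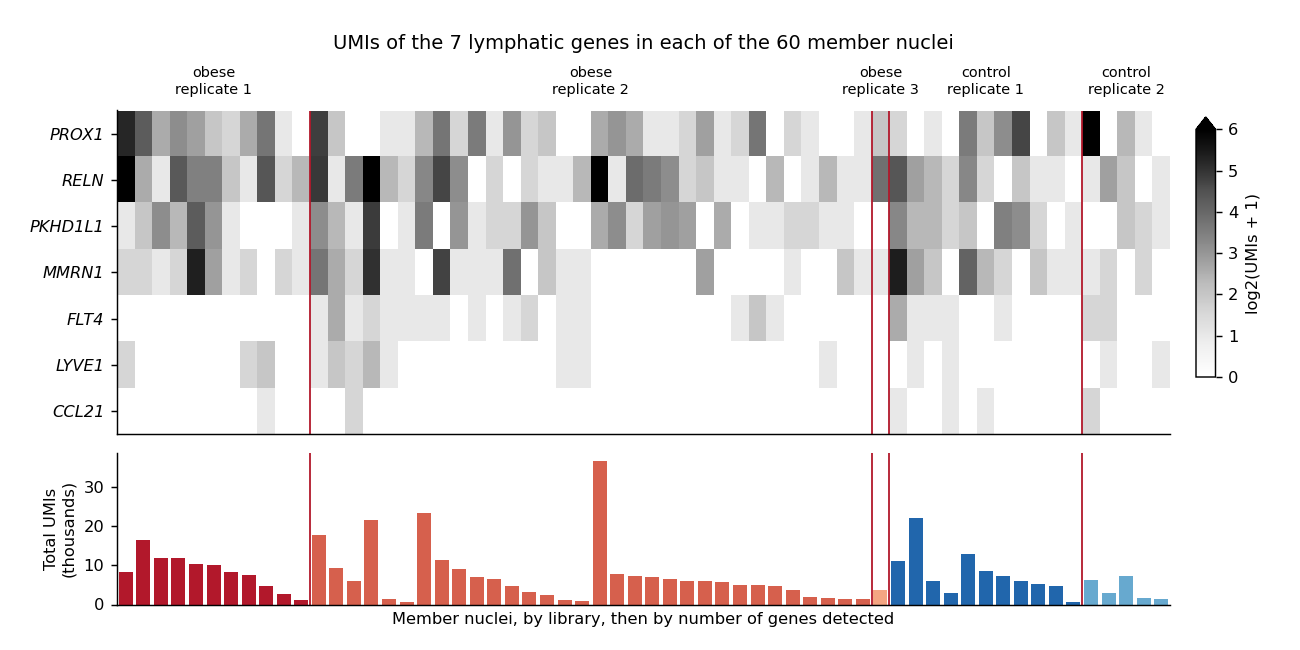
UMIs of the 7 rule genes (rows, shading as log2 of UMIs + 1, saturating at the top of the scale) in each of the 60 lymphatic nuclei (columns, grouped by pig), with bars for the total UMIs of each nucleus. RELN and PROX1 fill most columns, and LYVE1 and CCL21 are present in 15 and 6 nuclei.

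Most nuclei sat close to the threshold. Exactly 3 rule genes were detected in 26 nuclei, 4 in 22, 5 in 8 and 6 in 4, and no nucleus held all 7. Just outside, 84 nuclei held 2 rule genes, 1997 held 1 and 43364 held none. The 26 nuclei just inside had 590 CPM of PROX1 and 808 CPM of SYNPR, a gene outside the rule, and the 84 just outside had 338 and 135 CPM. MYH11, the smooth muscle myosin heavy chain, was at 211 CPM just inside and at 1750 CPM just outside. At least 3 of the other lymphatic markers were present in 84.6% of the nuclei just inside, in 31.0% of those just outside and in 85.3% of nuclei with 4 or more rule genes. At least 3 Schwann cell markers were present in 6 of the 84 nuclei just outside and in none of the 60 inside.

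The label was set beside 20 lymphatic markers outside the rule, of which 18 carried a named feature and 13 were detected in the lymphatic nuclei. The list was chosen with earlier results of these data known, so it is no independent check. At least 3 of these markers were present in 85% of lymphatic nuclei, in 30.0% of blood endothelial nuclei and in 2.99% of all other nuclei. Depth was not matched, with medians of 6033, 6085 and 2221 UMIs in that order. TFF3, FOXC2, RAMP3, ADAMTSL2 and GPR182 had no UMI. The summed level of this list was 2871, 3045 and 2631 CPM in the lymphatic nuclei of obese pigs and 4187 and 4446 CPM in those of control pigs. At least 3 pan-endothelial markers were present in 85% of lymphatic nuclei, in 97.6% of blood endothelial nuclei and in 14.9% of other nuclei. The label of 13 of the 60 nuclei rests on other genes than PROX1, since they held no PROX1 UMI, and 10 of these 13 held at least 3 pan-endothelial markers.

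Markers of other cell types were mostly low. No lymphatic nucleus held 3 markers of T and NK cells, Schwann cells or adipocytes. At least 3 pericyte markers were present in 1 nucleus, 3 B and plasma cell markers in 1, 3 macrophage markers in 2 and 3 fibroblast markers in 2. PDGFRA, LUM, PI16 and DPT of fibroblasts, C1QA, C1QB, C1QC and PTPRC of macrophages, CDH19 and SOX10 of Schwann cells and MS4A1, CD79A and PAX5 of B cells were all at 0. The other 6 of 10 fibroblast markers were detected, at a summed 178 CPM against 751 CPM in blood endothelial and 744 CPM in other nuclei. COL3A1 had 30 UMIs in 12 nuclei and FBLN1 23 UMIs in 14. The other 8 of 12 macrophage markers were detected, at a summed 155 CPM against 112 CPM in blood endothelial and 190 CPM in other nuclei. MRC1 had 15 UMIs in 7 nuclei. Its log2 difference from blood endothelial nuclei was 3.97 (edgeR test described below, adjusted p = 0.0559). F13A1 had 29 UMIs, 24 of them in 1 nucleus. EBF1, which stood on the B and plasma cell list, was present in 53 lymphatic nuclei. BANK1 and JCHAIN of the same list had 21 UMIs in 7 nuclei and 14 UMIs in 10 nuclei. Smooth muscle RNA was present throughout. At least 3 smooth muscle markers were detected in 71.7% of lymphatic nuclei, in 68.5% of blood endothelial nuclei and in 84.5% of other nuclei, with summed levels of 1696, 2656 and 10073 CPM. MYH11 was at 265 CPM in lymphatic nuclei, 518 CPM in blood endothelial nuclei and 2558 CPM in other nuclei. At least 4 smooth muscle markers were present in 43.3% of lymphatic, 45.8% of blood endothelial and 71.3% of other nuclei. Removing lymphatic nuclei with 4 smooth muscle or 3 macrophage markers left 33 of 60 and none in obese replicate 3. The log2 difference of MYH11 from blood endothelial nuclei was then −3.55, against −1.03 with all 60. MYH11 was itself among the markers used for the removal, and the blood endothelial nuclei were not filtered alike. Its fall was therefore set in advance. Whether the smooth muscle RNA came from free RNA or from mixed nuclei was not tested.

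**Figure D2:**
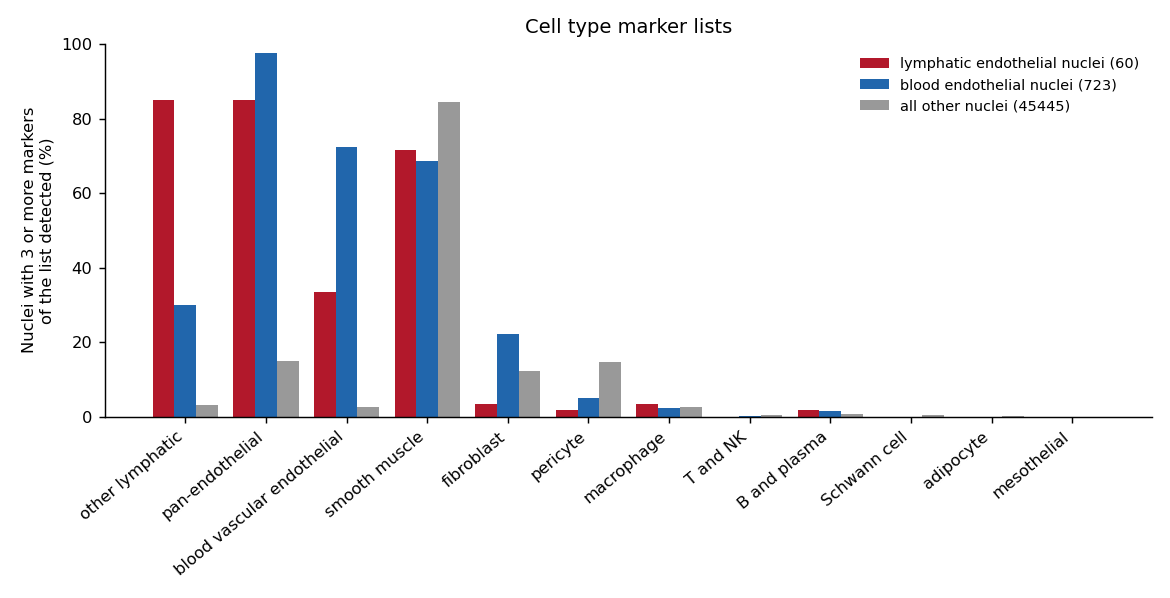
Share of nuclei (percent) that held at least 3 markers of each cell type list, for lymphatic endothelial, blood endothelial and all other nuclei. Other lymphatic markers reach 85% in lymphatic nuclei against 30.0% in blood endothelial nuclei, and smooth muscle markers are high in all 3 populations.

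The share of lymphatic nuclei in the aorta varied more among obese pigs than between the diets. It was 0.145% (95% exact binomial interval 0.0722 to 0.259), 0.317% (0.217 to 0.447) and 0.0102% (0.000258 to 0.0568) in obese replicates 1, 2 and 3, and 0.0896% (0.0447 to 0.160) and 0.0878% (0.0285 to 0.205) in control replicates 1 and 2. Control pigs fell between the lowest and the second obese pig, so the groups overlapped. The means were 0.157% ± 0.154 (SD, n = 3) in obese pigs and 0.0887% ± 0.00127 (SD, n = 2) in control pigs, a difference of 0.0685 percentage points with p = 0.8 in an exact two-sided permutation test, which cannot go below 0.2 here. Without obese replicate 2 the difference was −0.0113 percentage points. Nuclei with at least 1000 UMIs were also thinned to 1000 UMIs, which left out 789 to 2302 shallower nuclei per pig. The mean shares were then 0.0549% in obese and 0.0255% in control pigs. Among endothelial nuclei, lymphatic plus blood, the lymphatic share was 11.5%, 20.4% and 1.72% in obese pigs and 3.37% and 3.42% in control pigs, which gave means of 11.2% ± 9.33 (SD, n = 3) and 3.40% ± 0.0357 (SD, n = 2) and an exact p of 0.6. How much adventitia each vessel piece carried was not measured.

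**Figure D3:**
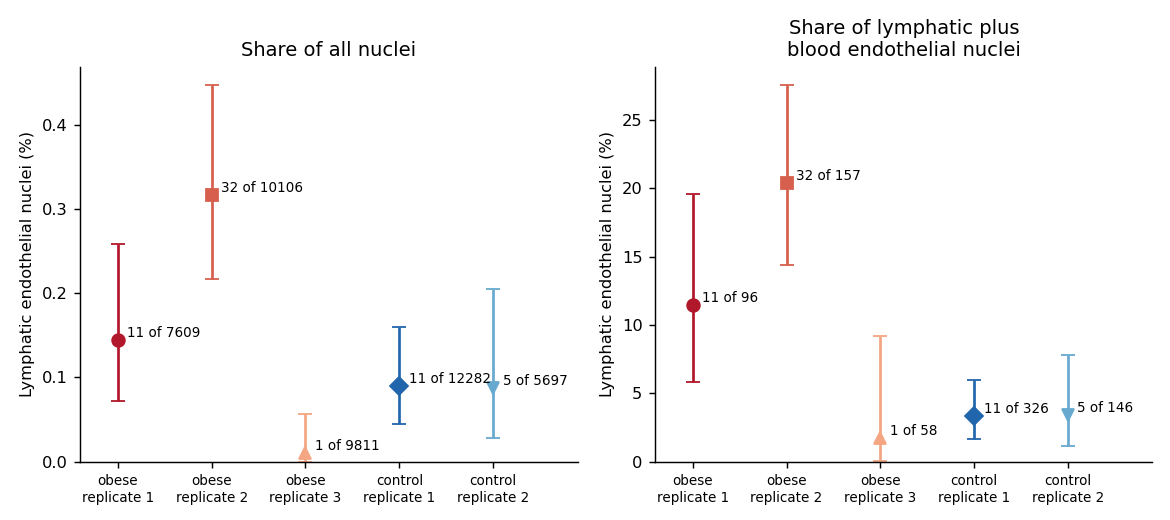
Lymphatic nuclei as a percentage of all nuclei and of endothelial nuclei in each pig, obese pigs left of control pigs, with exact 95% binomial intervals. Obese replicate 2 is highest at 0.317% of all nuclei and obese replicate 3 lowest at 0.0102%, with both control pigs in between.

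To describe what sets these nuclei apart from the endothelium of blood vessels, UMIs were summed per pig and population and compared with edgeR's quasi-likelihood test, with the pig as a block. The genes of both rules were left out of the test. The nuclei were chosen on their own RNA, so the p-values of the other genes are not an independent check of identity. They weigh a difference against a spread that the fit took almost wholly from all genes together. The p-values and SEs therefore do not measure a gene's own spread over the 5 pigs. A gene could pass without the same sign in every pig. Of 3564 genes tested, 7.66% passed, of which 121 were higher in lymphatic nuclei (3.4% of those tested) and 152 were lower (4.26%), at a Benjamini-Hochberg adjusted p under 0.05, and the median log2 difference of all tested genes was −0.21. Without the single nucleus of obese replicate 3, 169 were higher and 132 lower, and 221 of the 273 genes passed again. The count fell to 123 without obese replicate 1 and to 104 without control replicate 1.

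The leading genes of lymphatic nuclei outside the rule included SYNPR, CA10 and SEMA3D. SYNPR, which encodes the vesicle protein synaptoporin, had 1301, 1443 and 0 CPM in the lymphatic nuclei of obese replicates 1, 2 and 3 and 1243 and 3219.5 CPM in those of control replicates 1 and 2, against 2.51, 35.4, 73.0, 3.81 and 1.78 CPM in the blood endothelial nuclei of the same pigs. It was higher in 4 of 5 pigs, with a log2 difference of 6.98 ± 0.91 (SE) and an adjusted p of 9.17e-11, and the log2 difference was 7.93 without obese replicate 3. CA10, a carbonic anhydrase-related protein without enzyme activity, had 1355, 1186 and 0 CPM in obese lymphatic nuclei and 1403 and 1022 CPM in control lymphatic nuclei, against 2.08 to 168 CPM in blood endothelial nuclei. Its log2 difference was 5.62 ± 0.84 (SE), and 6.54 without obese replicate 3. SEMA3D, a secreted semaphorin, had 1183, 484 and 0 CPM in obese lymphatic nuclei and 1643 and 2249 CPM in control lymphatic nuclei, against 5.33 to 175 CPM in blood endothelial nuclei, with a log2 difference of 5.14 ± 0.85 (SE), and 6.11 without obese replicate 3. These genes were the top of the ranking but missed the naming rule, which asked for the same sign in every pig, because the nucleus of obese replicate 3 held none of their RNA. They were named after their values were seen, as were TNFAIP8L3 at a log2 difference of 5.13, the lipid droplet gene CIDEA at 5.00, the polarity gene PARD6G at 4.89 and ADCY1, an adenylate cyclase with 17 UMIs of which 9 came from 1 nucleus of control replicate 1, at 5.83. ADCY1 missed the threshold without control replicate 1 (4.39). Without obese replicate 3, whose nucleus held 2 of its UMIs (526 CPM), it was below the level required for a test. Without obese replicate 3 the log2 difference was 5.56 for TNFAIP8L3, 5.97 for CIDEA and 5.66 for PARD6G.

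The naming rule asked for a higher value in lymphatic than in blood endothelial nuclei of every pig, obese replicate 3 included. The 15 genes of largest rise that met it were named. STON2, which encodes the endocytic adaptor stonin 2, had 731, 531 and 1578.5 CPM in obese lymphatic nuclei and 639 and 715 CPM in control lymphatic nuclei, against 30.1, 96.7, 43.8, 16.6 and 12.4 CPM in blood endothelial nuclei. The lowest lymphatic value was above the highest blood endothelial value, and the log2 difference was 4.34 ± 0.62 (SE; adjusted p = 1.11e-09). DAPK1, a death-associated protein kinase, was detected in 57 of the 60 nuclei and had 2366, 2767 and 5525 CPM in obese lymphatic nuclei and 2418 and 2351 CPM in control lymphatic nuclei, against 208, 409, 628, 361 and 362 CPM in blood endothelial nuclei. Its groups did not overlap either, and its log2 difference was 2.66 ± 0.64 (SE; adjusted p = 0.00109), although it missed the threshold without obese replicate 1 (2.39) and without control replicate 1 (2.61). NTN1, the guidance cue netrin 1, had 1064.5, 287 and 526 CPM in obese lymphatic nuclei and 513 and 2300 CPM in control lymphatic nuclei, against 17.6 to 102 CPM in blood endothelial nuclei. It was detected in 28 nuclei, its log2 difference was 3.32 ± 0.67 (SE; adjusted p = 4.35e-05), and it missed the threshold without obese replicate 1 (2.68).

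The other 12 genes of that group were sparser or less even across pigs. In obese replicate 3, MEGF11, AK5, SCN3B, CERS4, DDAH1 and CSGALNACT1 met the rule with 1 UMI each, which equals 263 CPM there. CHST9, a sulfotransferase of N-acetylgalactosamine, differed by 4.75 on the log2 scale, and CSGALNACT1, which starts and extends chondroitin sulfate chains, by 2.55. PLD5 of the phospholipase D family differed by 4.61, the ceramide synthase gene CERS4 by 2.91 and REEP1, which shapes the endoplasmic reticulum, by 4.53. The adhesion and scaffold genes MEGF11, DLGAP1 and FLRT2 differed by 4.40, 3.97 and 3.41. AK5, an adenylate kinase, differed by 3.67, the kinase gene CDKL1 by 3.58, the sodium channel subunit gene SCN3B by 3.53 and DDAH1 by 2.81. DDAH1 degrades asymmetric dimethylarginine, an inhibitor that the body makes of nitric oxide synthases. CERS4 missed the threshold without obese replicate 1 (2.62), and CERS4, CDKL1, SCN3B and CSGALNACT1 missed it without control replicate 1 (2.79, 2.64, 2.93 and 2.21).

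**Figure D4:**
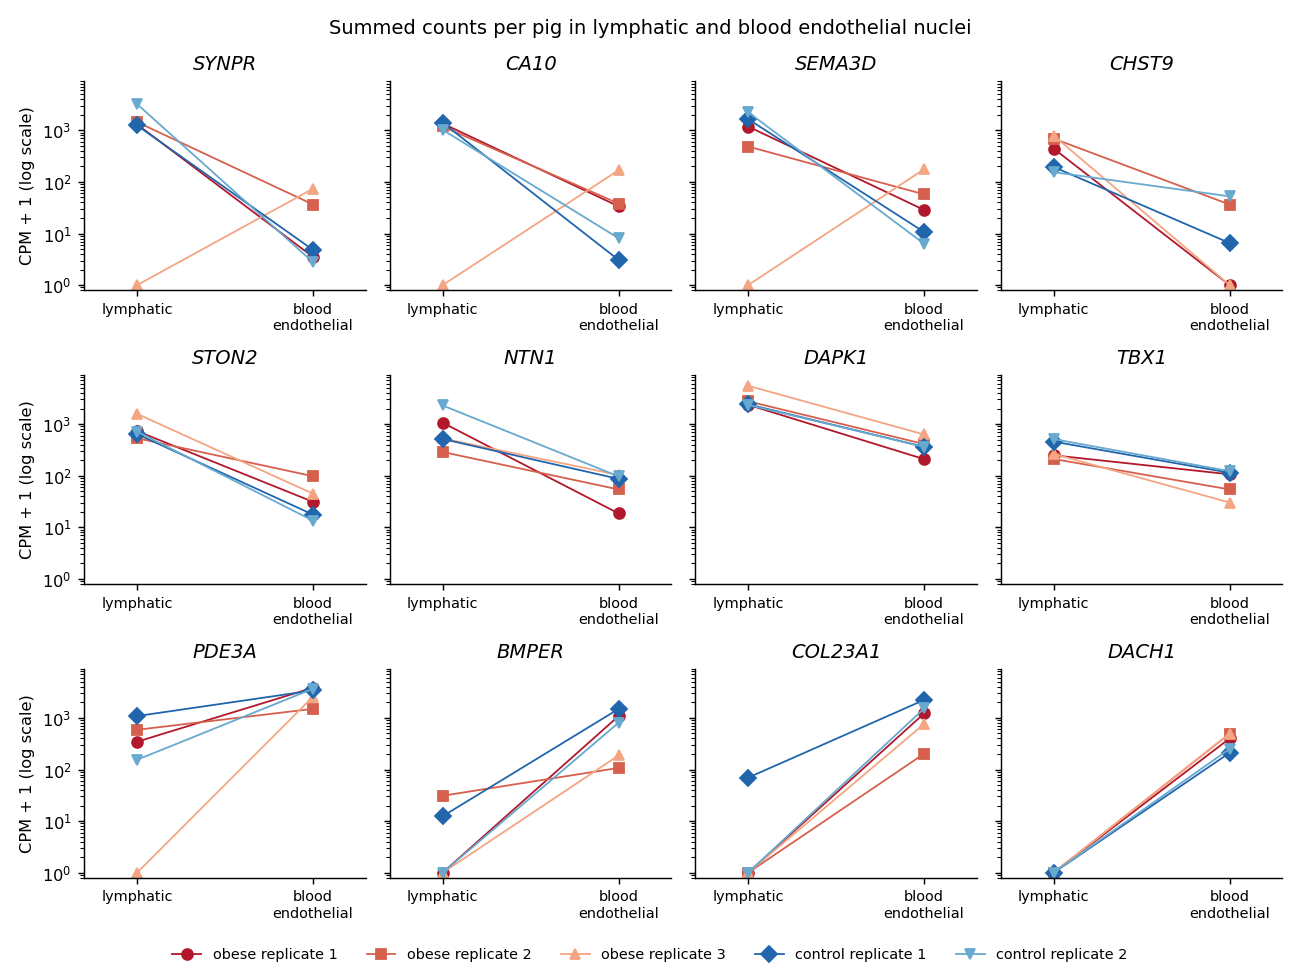
Level of 12 genes outside the rules in each pig, as CPM + 1 on a log axis, with lymphatic nuclei left of blood endothelial nuclei and lines joining the same pig. STON2, DAPK1, CHST9, NTN1 and TBX1 are higher in lymphatic nuclei of all 5 pigs, and DACH1 has no UMI in any lymphatic nucleus.

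Among the lymphatic markers outside the rule, 9 of 18 could be tested, and 7 were higher and none lower. Their median log2 difference was 2.15 against −0.21 over all genes. Over all genes tested, 3.4% were higher and 4.26% lower, the shares to hold against this list and those below. Besides SEMA3D and SCN3B the 7 higher markers were SEMA3A, ANGPT2, NR2F2, TBX1 and NRP2. A marker scarce in blood endothelial nuclei reached the mean of 50 CPM required for a test only through its lymphatic level. The counts and the median are therefore no check of identity. SEMA3A, a semaphorin that shapes lymphatic valves in mice, differed by 4.02 on the log2 scale, or 5.01 without obese replicate 3. It was higher in 3 pigs and lower in 2, and 115 of its 212 UMIs came from 1 nucleus. ANGPT2, an angiopoietin needed for lymphatic development in mice, differed by 2.77. Obese replicate 2 held 115 of its 117 UMIs, 87 of them in 1 nucleus, and ANGPT2 was higher in 2 pigs and lower in 2. It missed the threshold without obese replicate 1 (2.98), obese replicate 3 (2.96) or control replicate 1 (3.05). Without obese replicate 2 it was below the level required for a test.

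Among 24 transcription factor genes linked to lymphatic endothelium, 13 were tested, of which 2 were higher and 1 was lower, with a median log2 difference of −0.24. TBX1, a T-box factor that acts in lymphatic development in mice, had 247, 210 and 263 CPM in obese lymphatic nuclei and 456 and 511 CPM in control lymphatic nuclei, against 105, 53.2, 29.2, 113 and 122 CPM in blood endothelial nuclei. It was higher in 5 of 5 pigs without overlap of the populations, but the lymphatic value of obese replicate 3 is 1 UMI. Its log2 difference was 1.81 ± 0.55 (SE; adjusted p = 0.0174), and it missed the threshold without obese replicate 1 (1.93), obese replicate 2 (1.70), control replicate 1 (1.73) or control replicate 2 (1.77). NR2F2, the COUP-TFII partner of PROX1, had 118, 184 and 0 CPM in obese lymphatic nuclei and 45.6 and 256 CPM in control lymphatic nuclei, against 7.99 to 54.8 CPM in blood endothelial nuclei. Its log2 difference was 2.15 ± 0.60 (SE; adjusted p = 0.00653), and it missed the threshold without obese replicate 2 (2.26), control replicate 1 (2.06) or control replicate 2 (1.62). EPAS1, the hypoxia-inducible factor HIF-2α, was lower in 5 of 5 pigs at −2.28 ± 0.65 (SE; adjusted p = 0.00904), and it missed the threshold in each fit that left out a pig other than obese replicate 3 (−2.61 to −2.07). NR2F1 was below the level required for a test, with 75.4 CPM in lymphatic and 2.64 CPM in blood endothelial nuclei over all pigs.

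In the VEGFC-VEGFR3 pathway, lymphatic nuclei lacked RNA of the ligand and had more RNA of its protease and co-receptor. Of 19 pathway genes, 13 were tested, of which 2 were higher and 3 lower (median log2 difference −0.21). VEGFC had no UMI among the 437515 UMIs of the lymphatic nuclei, against 321, 295 and 201 CPM in blood endothelial nuclei of obese replicates 1, 2 and 3 and 25.6 and 25.8 CPM in those of control replicates 1 and 2. Set against a floor of 3 counts over all lymphatic nuclei, or 6.86 CPM, VEGFC was at least 12.9-fold lower than in the blood endothelial nuclei of all pigs pooled (adjusted p = 7.2e-08), and at least 34.1-fold lower with each pig weighted by its lymphatic UMIs. ADAMTS3 had 96.8, 107 and 0 CPM in obese lymphatic nuclei and 171 and 102 CPM in control lymphatic nuclei, against 6.22 to 36.5 CPM in blood endothelial nuclei, and its log2 difference was 2.45 ± 0.65 (SE; adjusted p = 0.00388). It missed the threshold without obese replicate 2 (2.13). NRP2 had 527, 390 and 0 CPM in obese lymphatic nuclei and 662 and 204 CPM in control lymphatic nuclei, against 20.8 to 280.3 CPM in blood endothelial nuclei, with a log2 difference of 2.05 ± 0.64 (SE; adjusted p = 0.0222). Its log2 difference was 2.67 without obese replicate 3. It missed the threshold without obese replicate 1 (1.73), control replicate 1 (1.19) or control replicate 2 (1.86), and it was named after its values were seen. NRP1, the co-receptor gene paired with VEGF-A signalling, was lower at −2.68 ± 0.68 (SE; adjusted p = 0.00197), with no UMI in either control pig, and it missed the threshold without control replicate 1 (−2.34). SPRY1, a feedback inhibitor of receptor tyrosine kinase signalling, was lower at −2.90 and missed the threshold without obese replicate 1 (−2.74) or obese replicate 2 (−2.84). KDR, which encodes VEGFR2, was not tested, with 57.1 CPM in lymphatic and 11.7 CPM in blood endothelial nuclei. FLT1, which encodes VEGFR1 and belongs to the blood endothelial rule, stood at 11.4 CPM in lymphatic and 565 CPM in blood endothelial nuclei.

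The angiopoietin receptor gene TEK was lower. Of 11 genes of the angiopoietin-Tie pathway, 7 were tested, of which 1 (ANGPT2) was higher and 3 were lower, with a median log2 difference of −1.57. TEK, the receptor TIE2, had 32.3, 51.4 and 0 CPM in obese lymphatic nuclei and 57.0 and 0 CPM in control lymphatic nuclei, against 359, 232, 365, 690 and 505 CPM in blood endothelial nuclei. Its log2 difference was −3.30 ± 0.68 (SE; adjusted p = 5.68e-05), lower in 5 of 5 pigs with no overlap. PTPRB, a phosphatase that restrains TIE2, was lower at −2.72 ± 0.67 (SE; adjusted p = 0.00149), and ITGA5, an integrin that binds fibronectin, at −2.61 ± 0.64 (SE; adjusted p = 0.00142). ITGA5 missed the threshold without obese replicate 1 (−2.55) or control replicate 1 (−2.28). TEK, PTPRB and EPAS1 were also the 3 of 7 tested pan-endothelial markers that were lower, and none of the 7 was higher.

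Of the 21 valve and flow-sensing genes found, 9 were tested, with 2 higher and 2 lower (median −0.37). CELSR1, a planar polarity cadherin needed for valves in mice, had 129, 206 and 0 CPM in obese lymphatic nuclei and 365 and 613 CPM in control lymphatic nuclei, against at most 131 CPM in blood endothelial nuclei, and differed by 3.38 ± 0.61 (SE; adjusted p = 2.17e-06), or 4.05 without obese replicate 3. FN1, which encodes fibronectin, had 64.5, 180 and 263 CPM in obese lymphatic nuclei and 228 and 460 CPM in control lymphatic nuclei, against 1383, 292 and 420 CPM in obese and 1236 and 1220 CPM in control blood endothelial nuclei. Its log2 difference was −2.17 ± 0.69 (SE; adjusted p = 0.0241), and it missed the threshold without obese replicate 1 (−1.67), control replicate 1 (−2.10) or control replicate 2 (−2.38). LAMA5, a laminin chain, was lower at −1.97 (adjusted p = 0.0486) with 10 UMIs and missed the threshold whichever pig was left out (−2.29 to −1.78).

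Of 20 reelin and matrix genes, 10 were tested, with none higher and 2 lower (median −0.55). MMRN2, an extracellular protein of blood vessel endothelium related to MMRN1, had 3 UMIs in the lymphatic nuclei, a pooled ratio of 0.0509 to blood endothelial nuclei (95% counting interval 0.0105 to 0.149). HSPG2, the basement membrane proteoglycan perlecan, was lower at −1.95 in 5 of 5 pigs, but missed the threshold in each fit that left out a pig other than obese replicate 3 (−2.15 to −1.76).

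For leukocyte traffic and scavenging, 23 of 26 genes were found and 5 tested, of which 1 was higher and 1 lower. ACKR2, a decoy receptor that clears inflammatory chemokines, had 118, 544 and 0 CPM in obese lymphatic nuclei and 228 and 256 CPM in control lymphatic nuclei, against 34.6 to 142 CPM in blood endothelial nuclei. The log2 difference of ACKR2 was 1.88 ± 0.57 (SE; adjusted p = 0.0181), and it missed the threshold in each fit that left out a pig other than obese replicate 3 (1.43 to 2.07). VCAM1, an adhesion molecule for leukocytes, had 2 UMIs, a pooled ratio of 0.0798 to blood endothelial nuclei (95% counting interval 0.00963 to 0.291), and missed the threshold without obese replicate 1 (−3.16 on the log2 scale). Without obese replicate 3 it was below the level required for a test. IL7, a cytokine that lymphatic endothelium makes for T cell survival in mice, was not tested, at 133 CPM in lymphatic and 5.65 CPM in blood endothelial nuclei. SELP, the selectin that blood endothelium displays to leukocytes, had no UMI in lymphatic nuclei.

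Vasoactive genes included a pair of phosphodiesterases that moved in opposite directions. Of 19 vasoactive and adrenomedullin genes, 8 were tested, with 1 higher and 2 lower (median −0.52). PDE5A, which degrades cyclic GMP, had 828, 767 and 0 CPM in obese lymphatic nuclei and 274 and 511 CPM in control lymphatic nuclei, against 82.8, 64.4, 83.9, 45.7 and 32.0 CPM in blood endothelial nuclei, and was higher at 2.94 ± 0.61 (SE; adjusted p = 7.07e-05). PDE3A, which degrades mainly cyclic AMP and is inhibited by cyclic GMP, had 344, 587 and 0 CPM in obese lymphatic nuclei and 1084 and 153 CPM in control lymphatic nuclei, against 3833.5, 1495 and 2588 CPM in obese and 3399 and 3672.5 CPM in control blood endothelial nuclei. PDE3A was lower in 5 of 5 pigs at −3.03 ± 0.70 (SE; adjusted p = 0.000486). NOS3, the endothelial nitric oxide synthase, was lower at −2.52 ± 0.70 (SE; adjusted p = 0.00697) in 4 of 5 pigs, with the opposite order in obese replicate 2 (158 CPM in lymphatic and 106 CPM in blood endothelial nuclei). It missed the threshold without obese replicate 1 (−2.46), obese replicate 3 (−2.24), control replicate 1 (−2.07) or control replicate 2 (−2.22).

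In the BMP and TGF-β pathway 8 of 19 genes were tested, with none higher and 2 lower (median −0.25). BMPER, a secreted regulator of BMP ligands, had 8 UMIs in lymphatic nuclei, at 0, 30.0 and 0 CPM in obese pigs and 11.4 and 0 CPM in control pigs, against 1084.5, 106 and 186 CPM in obese and 1491 and 806 CPM in control blood endothelial nuclei. Its log2 difference was −5.18 ± 0.90 (SE; adjusted p = 8.83e-07). SMAD6, an inhibitory SMAD induced by BMP signals, was lower at −3.16 ± 0.68 (SE; adjusted p = 0.000159), and both genes were lower in 5 of 5 pigs. For BMPER this includes obese replicate 3, where 0 CPM stood against a level below that of 1 UMI. In lipid handling, 8 of 20 genes found were tested. ACSL3, which activates fatty acids, was higher at 1.92, and the HDL receptor gene SCARB1 was lower at −2.24. ACSL3 missed the threshold without obese replicate 2 (1.88), obese replicate 3 (1.95), control replicate 1 (1.70) or control replicate 2 (1.61), and SCARB1 whichever obese pig was left out (−2.06, −1.53 and −2.07). Of 12 tested junction genes JAM3 was lower at −2.53 with 7 UMIs and none was higher. JAM3 missed the threshold without obese replicate 2 (−1.56), obese replicate 3 (−2.48) or control replicate 1 (−2.17). The fibroblast marker FBLN1, an extracellular matrix gene, was lower at −2.53 in 5 of 5 pigs and missed the threshold without control replicate 1 (−2.21). In obese replicate 3 FBLN1 likewise had 0 CPM against 135 CPM, a level below that of 1 UMI. Among 13 tested guidance genes 3 were higher and none lower (SEMA3D, SEMA3A and NTN1, median 0.32). SEMA3D and SEMA3A were already counted among the lymphatic markers. None of 5 tested Notch pathway genes, 16 immediate early and heat shock genes and 1 cholesterol synthesis gene passed the test in either direction. At the share of 7.66% over all genes, lists this small would hold few calls or none, so their counts say little about the pathways. MAML2, a Notch coactivator, had 1183, 1388 and 1315 CPM in obese lymphatic nuclei and 833 and 767 CPM in control lymphatic nuclei, against 869, 1484, 752, 723 and 782 CPM in blood endothelial nuclei.

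The genes of largest depletion were named by a rule that asked for a lower value in every pig, and in obese replicate 3 a gene at 0 meets it at almost any level. DACH1, a transcription factor that promotes coronary artery growth in mice, had no UMI in any lymphatic nucleus, against 399, 495 and 496 CPM in obese and 210.0 and 250.4 CPM in control blood endothelial nuclei. At the floor of 6.86 CPM it was at least 41.0-fold lower (adjusted p = 2.19e-10). LRFN5 and RAPGEF3 likewise had no UMI and were at least 36.8-fold and 20.2-fold lower against the blood endothelial nuclei of all pigs pooled. ANO4 had no UMI either, against 17.6, 17.7 and 47.4 CPM in obese and 385 and 426 CPM in control blood endothelial nuclei, and MALL had none against 47.7, 8.06 and 10.9 CPM in obese and 245 and 244 CPM in control blood endothelial nuclei. Control pigs carried most of the level of both genes, whereas obese pigs gave most lymphatic UMIs. With each pig's blood endothelial level weighted by its lymphatic UMIs, the bounds were at least 16.0-fold for ANO4, 10.9-fold for MALL, 14.2-fold for RAPGEF3, 33.6-fold for LRFN5 and 59.3-fold for DACH1. LRFN5 encodes a synaptic adhesion protein, ANO4 an anoctamin and RAPGEF3 the cyclic AMP sensor EPAC1. TOX, a nuclear factor best known from T cells, had 1 UMI in lymphatic nuclei against 105 to 1016 CPM in blood endothelial nuclei, a pooled ratio of 0.00364 (95% counting interval 9.22e-05 to 0.0203). GRID1 and CC2D2B also had 1 UMI each, at pooled ratios of 0.00406 (0.000103 to 0.0226) and 0.0065 (0.000165 to 0.0363). With the same weighting the ratios were 0.0053 for TOX, 0.0115 for GRID1 and 0.0114 for CC2D2B. COL23A1, a transmembrane collagen, had 6 UMIs, all from control replicate 1, against 1220.1, 201 and 763 CPM in obese and 2226 and 1520.2 CPM in control blood endothelial nuclei, with a log2 difference of −6.65 ± 0.94 (SE; adjusted p = 6.24e-10).

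**Figure D5:**
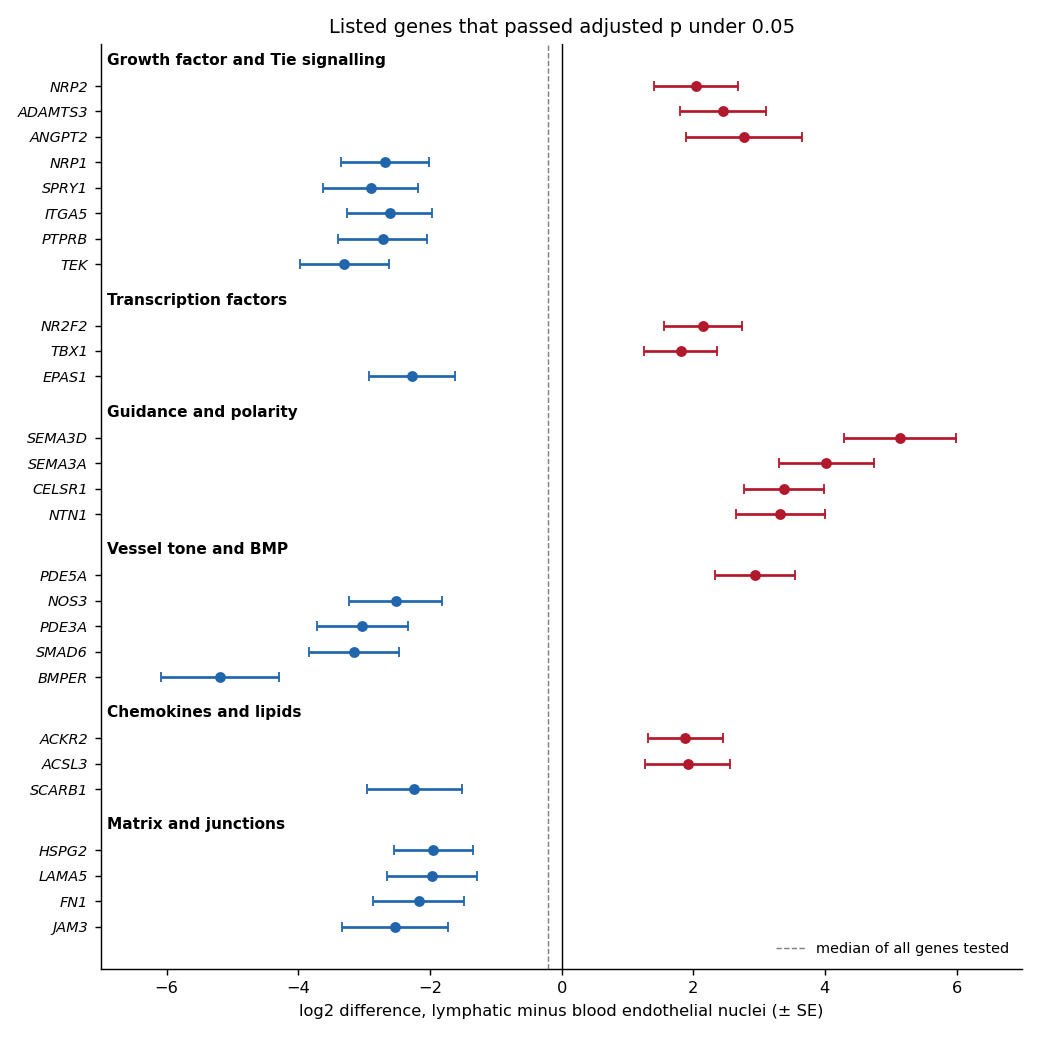
Log2 difference (lymphatic minus blood endothelial nuclei) with its SE for genes of the role lists that passed the test with more than 3 lymphatic UMIs, grouped by role, with a dashed line at the median of all tested genes (−0.21). Lymphatic markers and NTN1 lie to the right, and TEK, PTPRB, PDE3A, BMPER and SMAD6 to the left.

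Of all other nuclei of the aorta, 71.3% held at least 4 smooth muscle markers. Against these nuclei, 20.9% of 3564 genes passed, with 350 higher in lymphatic nuclei (9.82%) and 395 lower (11.1%), with a median log2 difference of −0.21. The count was 465 without obese replicate 1 and 448 without obese replicate 2, against 745 in all. By the naming rule the highest genes were EDA at 5.39, SEMA6A at 5.20, MDGA2 at 5.20, MEGF11 at 4.97, DAPK1 at 4.93, TBX1 at 4.81, CHST9 at 4.79, PLD5 at 4.69, STON2 at 4.56, PCDH17 at 4.50, PDE7B at 4.50 and ZDHHC14 at 4.48 on the log2 scale, each higher in 5 of 5 pigs as the rule required. EDA encodes ectodysplasin, a ligand of the TNF family that guides the growth of hair and teeth. It had 742, 1490.5 and 789 CPM in obese lymphatic nuclei and 947 and 1584 CPM in control lymphatic nuclei, against 14.8 to 27.3 CPM in all other nuclei. SEMA6A, a membrane semaphorin, was detected in 48 of the 60 nuclei. DAPK1, CHST9, PLD5, MEGF11 and STON2 met the rule in both comparisons.

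Larger differences without the same sign in every pig, named after their values were seen, were those of SYNPR at 8.62, CA10 at 7.45, PPM1E at 6.92, ENPP3 at 6.56, SEMA3A at 6.39, ENPP6 at 6.33, ANKRD55 at 6.21 and SEMA3D at 6.10. None of these 8 had a UMI in the nucleus of obese replicate 3. Of 7 tested pan-endothelial markers, 4 were higher and none lower. Of the blood endothelial rule genes, which played no part in choosing the lymphatic nuclei, EMCN was higher by 4.98, VWF by 4.19, EGFL7 by 3.36 and PECAM1 by 1.91. PECAM1 missed the threshold without obese replicate 1 (1.83) or obese replicate 2 (1.42). LDB2, a LIM-domain binding cofactor, differed by 4.30 with 3314 UMIs in 57 nuclei, and the ETS factor FLI1 by 3.05. BMP6, an endothelial regulator of iron balance in the liver of mice, differed by 3.68 and had 2183, 2373 and 526 CPM in obese lymphatic nuclei and 491 and 920 CPM in control lymphatic nuclei, against 30.6 to 189 CPM in other nuclei. Smooth muscle and pericyte genes were lower. All 8 tested smooth muscle markers and all 5 tested pericyte markers passed the test downward, at medians of −2.45 and −2.76, as did 3 of 4 fibroblast markers. MARK1, a microtubule-regulating kinase, had no UMI and was at least 18.6-fold lower, and the Notch target HEYL, the connexin gene GJC1 and the smooth muscle actin gene ACTG2 had pooled ratios of 0.0463 (95% counting interval 0.00955 to 0.135), 0.056 (0.0116 to 0.164) and 0.046 (0.00556 to 0.166). NCALD and WIF1 had pooled ratios of 0.0442 (0.00911 to 0.129) and 0.0342 (0.00414 to 0.123).

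Diet was compared over the sum of lymphatic nuclei in each pig, 3 obese against 2 control. No gene passed the test in either direction (0% of 3451), 94 genes had an unadjusted p under 0.05, and DESeq2 called 0 as well. The median log2 difference was −0.08. For the 5 genes of smallest p in each direction, the adjusted p lay between 0.568 and 0.652, and for several of them the UMIs came mainly from a single pig or nucleus. PTGS2, the inducible cyclooxygenase, had 164 UMIs, all of them in 12 nuclei of obese replicate 2. MEOX2, a homeobox factor of endothelium, had 60, 295 and 0 UMIs in obese replicates 1, 2 and 3 and 1 and 0 UMIs in control replicates 1 and 2, at a log2 difference of 6.21. ANGPT2 had 2, 115 and 0 UMIs in obese pigs and none in control pigs. HMOX2, a heme oxygenase, had 14, 59 and 0 UMIs in obese pigs and none in control pigs, and KCNIP1 had 31, 13 and 0 UMIs in obese pigs and none in control pigs, with 31 in 1 nucleus. In the other direction, SLC41A1, a magnesium transporter, had 3, 4 and 0 UMIs in obese pigs and 70 and 0 UMIs in control pigs, all 70 from 1 nucleus. COL6A6 had 0, 3 and 0 UMIs in obese and 11 and 6 UMIs in control pigs, CACNA1A had 0, 1 and 0 UMIs in obese and 2 and 8 UMIs in control pigs, GLUD1 had 1, 0 and 0 UMIs in obese and 1 and 10 UMIs in control pigs, and UNC5B had 0, 0 and 0 UMIs in obese and 2 and 7 UMIs in control pigs. Obese replicate 3, with 3801 UMIs in its sum, contributed no UMI to any of these 10 genes.

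Stress-responsive immediate early and heat shock genes had a median log2 difference of 0.72 between obese and control lymphatic nuclei over 17 tested genes, none of which passed. HSPH1, a heat shock protein, had 53.8, 1508 and 0 CPM in obese lymphatic nuclei and 34.2 and 256 CPM in control lymphatic nuclei. FOS had 452, 600 and 1315 CPM in obese lymphatic nuclei and 445 and 869 CPM in control lymphatic nuclei. The lymphatic markers outside the rule had a median log2 difference of −0.24 over 9 tested genes, and none passed.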

How the data were processed

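Nuclei of 5 abdominal aortae were profiled with 10x Genomics 3′ chemistry v3.1, per the labels' protocols. The authors deposited unnormalized UMI counts for each gene in each nucleus, made with Cell Ranger, version 5.0 per the submitters' processing notes and 7.1.0 per the file headers, on the pig build Sscrofa11, and Seurat 5.0 is also named there. Of 35670 features, 17508 carried a symbol, 223 more were matched by gene ID and 17939 stayed unnamed. Of 45580 barcodes, 75 under 300 genes were left out; no doublets were removed in the main analysis, because Scrublet's automatic threshold marked 2 nuclei. An alternative removed 3517 nuclei by an expected rate, among them 8 lymphatic and 93 blood endothelial nuclei. At most 0.266% of a lymphatic nucleus's UMIs were mitochondrial.

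Counts were summed per pig and population and tested with edgeR 4.0.16 in R 4.3.3 (quasi-likelihood test, TMM factors, genes with a mean of at least 50 CPM over the sums). This filter let 2 UMIs of obese replicate 3's nucleus pass a gene. The lymphatic and comparison sums of a pig share that pig, so pig was a block. The correlations of their deviations were 0.0875, 0.176 and −0.0658 for obese and 0.258 and −0.0231 for control pigs against blood endothelial nuclei, and 0.144, 0.217, 0.0963, 0.245 and 0.0536 in the same order against all other nuclei. Shares were tested by exact permutation over pigs with exact binomial intervals at 95%, and intervals and the floor of 3 counts cover counting error only. Each pig is 1 sample. Python 3.11.15, scanpy 1.11.5 and scipy 1.17.1 were used.

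Named genes were, against blood endothelial nuclei, the 15 of largest rise and 10 of largest fall that passed with 1 sign in every pig; against all other nuclei, 12 and 6; up to 4 genes per list (or, where none passed, the 2 of highest CPM); and for diet the 5 of smallest p each way. Others are said to be named after their values were seen. The members and gene lists were chosen with earlier results of these data known. On simulated counts, the fits recovered 36, 36 and 3 of 100 genes changed by 2 on the log2 scale, and 99, 100 and 55 of 100 changed by 4, for blood endothelial nuclei, all other nuclei and diet. The simulation gave every gene the same spread, with no pig effect and no RNA concentrated in single nuclei. Its recovery rates therefore need not hold for the real counts. DESeq2 1.42.0, other scalings, filters, rule thresholds, doublet removal and leaving out each pig were alternatives. Other cell populations were not analysed here.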

Additional observations from a re-analysis of the deposited data

How the results depend on the processing

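Against blood endothelial nuclei, the 273 calls became 457 with no filter on low counts (147 higher, 310 lower) and 234 with no replicate block (106 higher, 128 lower), and ranged over 104 to 301 when each pig was left out. Against all other nuclei, the 745 calls became 1562 with no filter (599 higher, 963 lower) and 859 with no replicate block (436 higher, 423 lower), and ranged over 448 to 836. Diet gave 0 calls, 1 with library-size scaling only, 2 with a rule of at least 4 genes, 2 with mixed nuclei removed and 3 with the replicate block; leave-one-out fits gave 0. MEOX2 was among those, at adjusted p = 0.000775 with the block, 0.0095 with mixed nuclei removed and 0.0436 with at least 4 genes (edgeR). Replicate numbers did not pair obese with control pigs (correlations −0.0401 and 0.0459). The share difference was −0.0113 to 0.142 percentage points over leave-one-out values. Library-size scaling moved the median log2 difference of all genes against blood endothelial nuclei to −0.11.

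For named genes against blood endothelial nuclei, 1136 values kept their status, passing or not, 110 lost a call, 12 gained one and 19 changed sign. Against all other nuclei 592 kept their status and 8 lost a call. Fits in which a gene was below the level required for a test are not counted. All sign changes were in genes that passed no test or, for JAM3, in a looser rule: with at least 2 rule genes MYH11 was 0.97, CSPG4 0.93, JAM3 0.23, CALD1 0.72 and MAML2 0.36. CSPG4 was 0.0392 with library size only, 0.21 with a blood endothelial rule of 4 genes, and −0.31 to 0.34 when a pig was left out, above 0 without obese replicate 2 (0.34), control replicate 1 (0.21) and control replicate 2 (0.0643). MAML2 was 0.0682 with DESeq2, 0.0353 with RLE factors, 0.24 with library size only, 0.12 with doublets removed, 0.0655 with no replicate block and −0.21 to 0.13 when a pig was left out, above 0 without obese replicate 3. ACACB was 0.00245 without the nucleus of most UMIs (an alternative chosen after seeing the data) and −0.34 to 0.0878 when a pig was left out, above 0 without obese replicate 2 and control replicate 2. The cause was not tested. Depth limits the values of obese replicate 3, with 3801 UMIs.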

Other observations

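The 15 lymphatic nuclei with a LYVE1 UMI were set beside the 45 without. This split and the genes below were chosen after values were seen and carry no test. A nucleus with LYVE1 needs fewer of the other rule genes to be a member, so the shares of PROX1, RELN and FLT4 are partly fixed by the rule. PROX1 was detected in 6 of the 15 nuclei with LYVE1 and in 41 of the 45 without, and RELN in all 15 with LYVE1 and in 84.4% of those without. FLT4, the VEGFC receptor gene, was detected in 66.7% of nuclei with LYVE1 and 28.9% of nuclei without, and the phagocytic receptor gene MERTK in 73.3% and 35.6%. CYBRD1, a ferric reductase, was detected in 60% with LYVE1 and 31.1% without. In the other direction, the matrix gene HMCN1 was detected in 13.3% of nuclei with LYVE1 and 66.7% without, SPOCK2 in 13.3% and 53.3%, the semaphorin receptor gene PLXNA4 in 33.3% and 71.1%, ANXA1 in 6.67% and 42.2%, and IGFBP7 in 26.7% and 66.7%. The median depth was 4642 UMIs in nuclei with LYVE1 and 6040.0 UMIs in nuclei without, and its part in these shares was not tested. At least 3 pan-endothelial markers were present in 86.7% of nuclei with LYVE1 and 84.4% without, and 3 macrophage markers in 1 nucleus each.

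Single nuclei carried much of some genes. SLC41A1 had 90.9% of its UMIs in 1 nucleus, ANGPT2 74.4%, KCNIP1 70.5% and TNFAIP8L3 39.6%, against 12.1% each for SYNPR and DAPK1.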
